A study of Mus musculus with 4 samples.

Results

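The genes described here encode the BCL-2 family, the proteins that decide whether the outer mitochondrial membrane is opened during apoptosis. The 10 members were chosen by name: Pmaip1, Bbc3, Bax, Bak1, Bcl2, Bcl2l1, Bcl2l11, Mcl1, Bid and Bad. Every probe set whose platform gene symbol was 1 of these names was taken, which gave 29 of 45037 probe sets and covered 9 of the 10 genes. Bax was not analysed here. The list was drawn up with earlier results of the same knockout and wild-type arrays in view, so the genotype differences of its members are given as a description, and nothing is read from a p-value for them.

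Transcript levels were read on 4 Affymetrix arrays from an immortalised line of mouse embryonic fibroblasts (MEFs) homozygous for a conditional PA1 allele, PA1loxP/loxP. PA1 -/- cells (2 arrays) had received a retrovirus expressing Cre recombinase, which cuts out DNA between loxP sites, and PA1 +/+ cells (2 arrays) the retroviral vector alone, so PA1 +/+ cells still carry the loxP sites. All cultures grew in DMEM with 10% FBS and were selected for 3 days, then once more, with puromycin at 2.0 ug/ml. Cre was present in the PA1 -/- cells alone, so the loss of PA1 and the presence of Cre cannot be told apart. The labels number the arrays of each genotype 1 and 2 without saying whether these were separate infections, cultures or clones, so a p-value here covers the spread between the arrays alone, some of which may be technical. The purpose of the study was to find genes regulated by PA1, taken here to be Pagr1a, whose product is a subunit of the histone methyltransferase complexes built on KMT2C and KMT2D.

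BCL-2 proteins fall into 3 classes. The survival proteins BCL-2, BCL-XL (from Bcl2l1) and MCL-1 hold the pore-forming effectors BAX and BAK (from Bak1) in check. The BH3-only proteins NOXA (from Pmaip1), PUMA (from Bbc3), BIM (from Bcl2l11), BID and BAD relay death signals by binding the survival proteins, the effectors or both. Pmaip1 and Bbc3 are well-known targets of the transcription factor p53, and Bcl2l11 and Bbc3 are known targets of FOXO factors. MEFs express members of all 3 classes and are a standard cell in which the mitochondrial pathway has been studied.

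Pagr1a read 107.6 and 113.4 on the PA1 -/- arrays, against 1340 and 1389 on the PA1 +/+ arrays, in MAS5 signal units of its brightest probe set. The position of its probe sets relative to the deleted part was not given in the sources used here, so they may not check the deletion itself. Of 10 fibroblast markers, 9 lay in the upper 50% of probe sets by mean signal, the part of the arrays that was tested, and Lum did not. The summed signal of these 10 markers was 79242 and 88918 on PA1 -/- arrays and 87548 and 109103 on PA1 +/+ arrays. Each tested fibroblast marker had a mean log2 difference below 0, from -1.38 for Dcn to -0.09 for Fn1. Some, such as Fn1, differed in direction between the numbers, and the dim Lum had 0.41. Dcn read 41.4 and 37.9 on PA1 -/- arrays, against 138.2 and 102.9 on PA1 +/+ arrays. Its PA1 -/- values lie below the boundary of the tested range, 62.8. Of 5 markers of macrophages and other blood cells 2 were in the tested range. Csf1r, a macrophage growth factor receptor gene, read 174.8 and 147.0 on PA1 -/- arrays, against 94.9 and 91.3 on PA1 +/+ arrays (0.72), and Cd68 read 173.2 and 132.8 against 224 and 164.6 (-0.32). Ptprc, Adgre1 and Itgam were below the range, and the 5 summed to 435 and 327 on PA1 -/- arrays and 371 and 283 on PA1 +/+ arrays. Of 5 endothelial markers Kdr was in the range, and of 4 muscle markers Des was, both at signals of at most 88.5. Of 6 epithelial markers 3 were in that range, among them Krt19, and the 6 summed to 3744 and 2007 on PA1 -/- arrays and 2289 and 2090 on PA1 +/+ arrays. Of 4 neural markers 3 were in it, among them Nes and Tubb3, and the 4 summed to 1630 and 1511 against 2165 and 2151. The part of all these markers in the results below was not tested. The median signal lay between 63.2 and 66.4 on the 4 arrays. Arrays of 1 number but different genotype correlated at 0.971 and 0.977 over the tested probe sets, and arrays of 1 genotype but different number at 0.920 and 0.918, which is why each gene is also read within its number.

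Of the 9 members measured, NOXA's gene Pmaip1 was higher in the knockout at both numbers by more than 2-fold, while the genes of PUMA and BIM, Bbc3 and Bcl2l11, were lower at both numbers by more than 1.5-fold. Bak1, Bid and, except after quantile or cyclic loess normalization, Bad were higher at both numbers by smaller amounts, and Bcl2 was lower. Bcl2l1 and Mcl1 differed in direction between the numbers. In all, 4 of 9 members were higher at both numbers, against 33.9% of the 10714 genes tested, and 3 were lower at both, against 29.3%. The 2 members of opposite direction compare with 36.8% of genes. The median difference over the 9 was 0.00 on the log2(signal + 9.96) scale, where 9.96 is a constant added to steady dim signals, and the median over all genes tested was 0.02. The samples are bulk RNA, in which a lower level per cell and fewer cells that express a gene cannot be told apart. The family held members on both sides of 0, as the plot of signals by array shows.

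**Figure D1:**
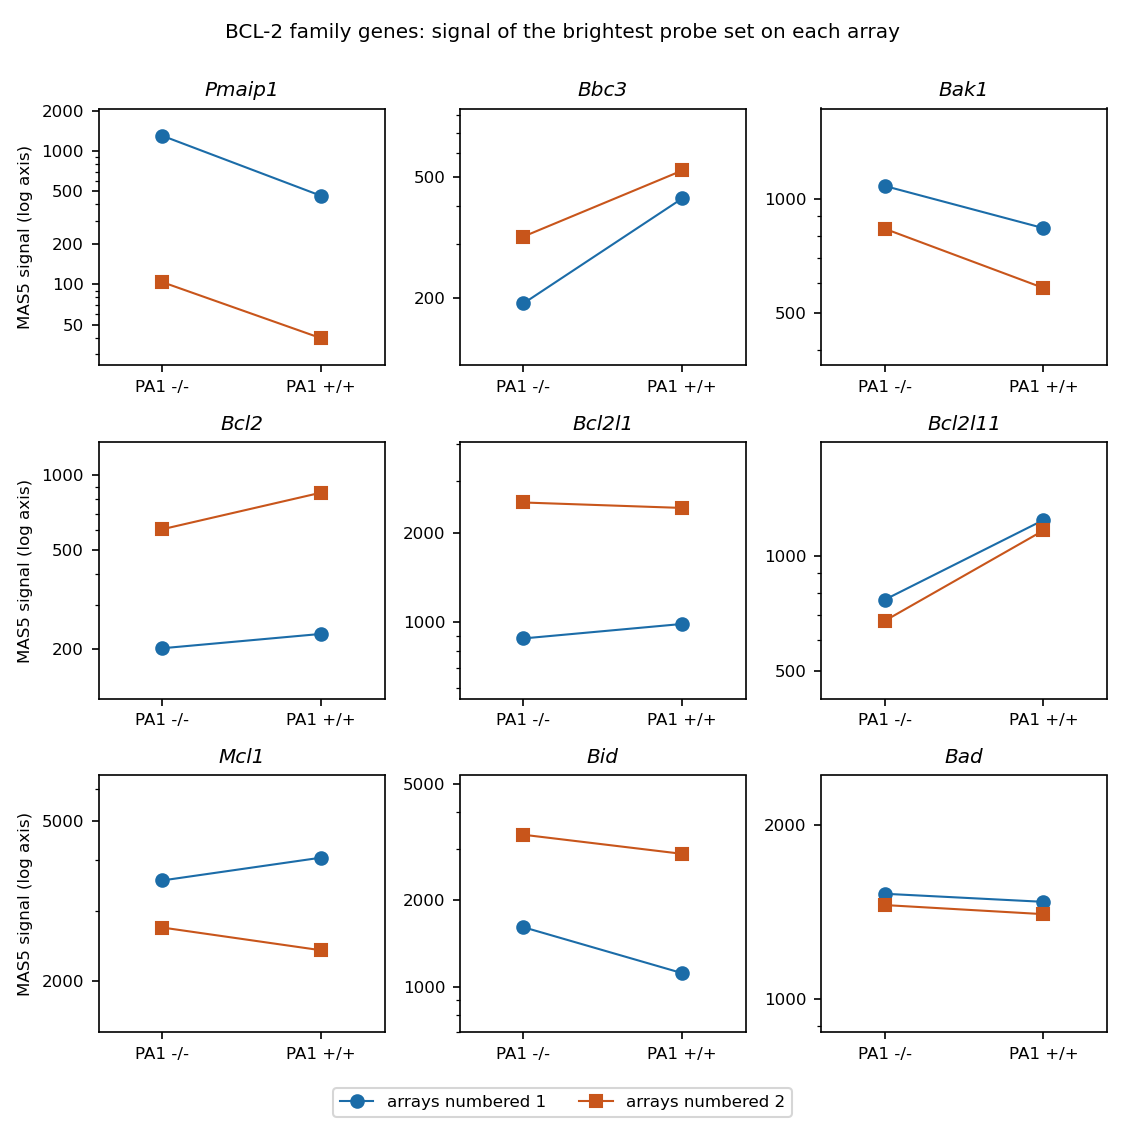
MAS5 signal (log axis, a separate range in each panel) of the brightest probe set of each of the 9 members on the 4 arrays, PA1 -/- on the left and PA1 +/+ on the right of each panel. Circles joined by a line are the arrays numbered 1 and squares those numbered 2. Both lines slope down to the right for Pmaip1 and up for Bbc3 and Bcl2l11. For Pmaip1, Bcl2, Bcl2l1 and Bid, among others, the distance between the lines exceeds their slope.

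Pmaip1, whose product NOXA is a BH3-only protein that binds MCL-1, read 1304 and 104.1 on the PA1 -/- arrays numbered 1 and 2, against 462 and 39.5 on the PA1 +/+ arrays. The PA1 -/- array was the higher at each number, at 2.82 times the PA1 +/+ signal at number 1 and 2.63 times at number 2, but the groups overlapped because both arrays numbered 2 were dim. On the log2 scale with the added constant the differences were 1.48 and 1.20, with a mean of 1.34. Only 15 of the 10714 genes tested had a higher mean difference. Pmaip1 was the 1 member at least 2-fold higher at both numbers, a class that held 0.187% of genes, and since this contrast was known when the list was made, nothing is read from that count. At least 2-fold lower at both numbers were 0 members, against 0.831% of genes. The PA1 +/+ signal of 39.5 lies below the boundary of the tested range, 62.8, so the ratio at number 2 rests on a dim value. With the constant set at the median signal, the difference at number 2 was 0.69, under 2-fold. If an array is left out, arrays of unlike number are compared: the difference of group means was -0.42 without the PA1 -/- array numbered 1 and -0.29 without the PA1 +/+ array numbered 2, and 3.10 and 2.97 without the other PA1 -/- and PA1 +/+ arrays. Pmaip1 has 1 probe set, so no other probe set checks these values.

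Bbc3 encodes PUMA, a BH3-only protein that binds all the main survival proteins. It read 191.8 and 318 on the PA1 -/- arrays, against 425 and 526 on the PA1 +/+ arrays, through its 1 probe set. Both PA1 -/- values lay below both PA1 +/+ values. The PA1 -/- signal was 0.451 of the PA1 +/+ signal at number 1 and 0.606 of it at number 2, or -1.11 and -0.71 on the log2 scale. The group means were 255 ± 89.5 in PA1 -/- and 475 ± 70.9 in PA1 +/+ cells (SD, n = 2 each). The mean log2 difference was -0.91, 2.11% of genes had a lower one, and leaving out 1 array gave values from -1.26 to -0.56.

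Bcl2l11, the gene of the BH3-only protein BIM, has 5 probe sets. The brightest read 767 and 675 on the PA1 -/- arrays, against 1239 and 1164 on the PA1 +/+ arrays. The groups did not overlap, and the arrays of each genotype lay close together (721 ± 64.8 against 1201 ± 53.3, SD, n = 2 each). The second brightest read 481 and 495 on PA1 -/- arrays, against 724 and 760 on PA1 +/+ arrays, also without overlap. The log2 differences were -0.69 and -0.78 at numbers 1 and 2 for the brightest and -0.58 and -0.61 for the second. A dimmer probe set read 108.3 and 115.6 against 159.9 and 143.5, a mean difference of -0.41. The 2 others, at signals between 95.8 and 138.6, differed by -0.17 and -0.09 in the mean, and 1 of them changed sign between the numbers. Leaving out 1 array kept the brightest probe set between -0.82 and -0.64. Among all genes, 3.35% had a lower mean difference.

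Bbc3 and Bcl2l11 were the 2 members whose groups did not overlap, both with the knockout lower, as for 11.3% of genes tested, and 0 members were higher without overlap, against 15.0% of genes. They were also the 2 members at least 1.5-fold lower at both numbers, against 2.55% of genes, a limit chosen after their values had been seen. For 8 of the 9 measured members, 14 promoters were found in RefSeq (GRCm38.p6), each from 250 bases before to 50 after a transcription start. The FOXO core GTAAACA, searched on both strands, was present in 1 promoter of Bcl2l11 and 1 of Bbc3 and in none of the other 12, and in 3.65% of all 32851 promoters in the table. These 2 of the 5 promoters of Bcl2l11 and Bbc3 are printed here because they hold the core, which is in capitals. The first lies on the plus strand at chr2:128125788-128126087 with the core starting 227 bases before the start site. The second lies on the plus strand at chr7:16310011-16310310, 167 bases before, where the core reads TGTTTAC as the other strand carries it.
Bcl2l11 promoter: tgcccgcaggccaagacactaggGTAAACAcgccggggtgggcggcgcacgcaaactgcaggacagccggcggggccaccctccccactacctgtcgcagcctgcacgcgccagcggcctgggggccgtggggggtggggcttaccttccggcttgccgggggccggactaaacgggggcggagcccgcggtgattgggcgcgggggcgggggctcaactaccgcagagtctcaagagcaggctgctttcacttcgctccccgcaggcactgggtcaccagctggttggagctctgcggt
Bbc3 promoter: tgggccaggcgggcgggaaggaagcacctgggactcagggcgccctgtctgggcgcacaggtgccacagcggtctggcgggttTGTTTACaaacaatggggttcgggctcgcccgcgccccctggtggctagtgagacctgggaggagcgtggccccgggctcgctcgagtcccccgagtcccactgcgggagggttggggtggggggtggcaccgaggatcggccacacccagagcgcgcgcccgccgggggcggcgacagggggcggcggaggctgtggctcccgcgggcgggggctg
The GC box GGGCGG was found in 9 of the 14 promoters, among them all 5 of Bcl2l11 and Bbc3, and in 35.7% of all promoters. The Bbc3 promoters at chr7:16310011-16310310 and chr7:16310181-16310480 overlap and share some of these GC boxes, so they are not separate sequences. The E-box CACGTG was in 1 of the 14 promoters (a further Bbc3 promoter) and in 7.15% of all. The p53 motif of a single decamer had 0 matches in the 14 promoters, which include none of Pmaip1, and was present in 8.36% of all. The promoter of Bax, whose transcript was not analysed here, had 1 match, 201 bases before the start. These matches describe the letters in these windows and say nothing of binding. The FOXO genes themselves read 1466 and 2295 on PA1 -/- arrays against 1496 and 2637 on PA1 +/+ arrays for Foxo3, and 548 and 223 against 735 and 211 for Foxo1, with mean log2 differences of -0.11 and -0.17.

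Bid, which is cut by caspase-8 and so joins the death receptors to mitochondria, read 1610 and 3351 on the PA1 -/- arrays, against 1118 and 2880 on the PA1 +/+ arrays. The PA1 -/- array was the higher at each number, by 0.52 and 0.22 on the log2 scale, but the groups overlapped widely. The second probe set read 551 and 1516 against 399 and 1147, with differences of 0.46 and 0.40. The dimmest one differed by -0.09 and 0.32. Without the PA1 -/- array numbered 2 the difference of group means was -0.16, without the PA1 +/+ array numbered 1 it was -0.31, and without the other arrays it was 0.90 and 1.05.

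Bad, whose product is held inactive by survival kinases such as AKT, read 1520 and 1454 on PA1 -/- arrays, against 1472 and 1402 on PA1 +/+ arrays. All 4 values lay within a narrow range, and the differences were 0.05 at each number. After quantile normalization the difference at number 1 was -0.01. Its second probe set differed by -0.47 at number 1 and 0.32 at number 2. The direction of that probe set was thus not shared by the numbers.

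Bak1, the gene of the pore-forming effector BAK, read 1082 and 835 on PA1 -/- arrays, against 837 and 582 on PA1 +/+ arrays. The PA1 -/- array was the higher at each number, by 0.37 and 0.51, yet the lower PA1 -/- value stood just under the higher PA1 +/+ value. A dim second probe set differed by 0.45 and 0.08. Leaving out 1 array gave between 0.18 and 0.70 for the brightest.

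Among the survival genes, Bcl2 was read through 5 probe sets. The brightest gave 201 and 607 on PA1 -/- arrays, against 230 and 852 on PA1 +/+ arrays, or -0.18 and -0.48 on the log2 scale. Another 3 were likewise lower at both numbers, with mean differences of -0.25, -0.48 and -0.65, and 1 was higher at both, at 0.35 and 0.02. The probe sets of Bcl2 therefore disagreed in sign. Without the PA1 -/- array numbered 1 the brightest gave 0.44, without the PA1 +/+ array numbered 2 it gave 0.59, and without the other arrays -1.11 and -1.26.

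Bcl2l1, the gene of BCL-XL, read 881 and 2534 on PA1 -/- arrays, against 986 and 2429 on PA1 +/+ arrays. The differences of -0.16 and 0.06 had opposite signs, as had those of its 3 other probe sets, 1 of which was too dim to be tested. Leaving out 1 array moved the brightest probe set between -0.81 and 0.71.

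Mcl1 encodes a short-lived survival protein and was read through 6 probe sets. The brightest gave 3564 and 2723 on PA1 -/- arrays, against 4060 and 2390 on PA1 +/+ arrays, with differences of -0.19 and 0.19 that cancelled. Another 3 were higher in the knockout at both numbers, among them 1 at 2387 and 1586 against 2025 and 769, with differences of 0.24 and 1.04. A probe set at 2157 and 1696 against 2327 and 1767 was lower at both, by -0.11 and -0.06, and another differed by -0.03 and 0.71. The 3 probe sets of Mcl1 that the array design marks as able to match other transcripts (names ending in x_at) had 0.35, 1.04 and 0.71 at number 2, and 1 without that mark had 0.54. The genotype difference of Mcl1 thus depended on the probe set. Leaving out 1 array moved the brightest between -0.38 and 0.38. The plot of all probe sets shows where those of a gene agree.

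**Figure D2:**
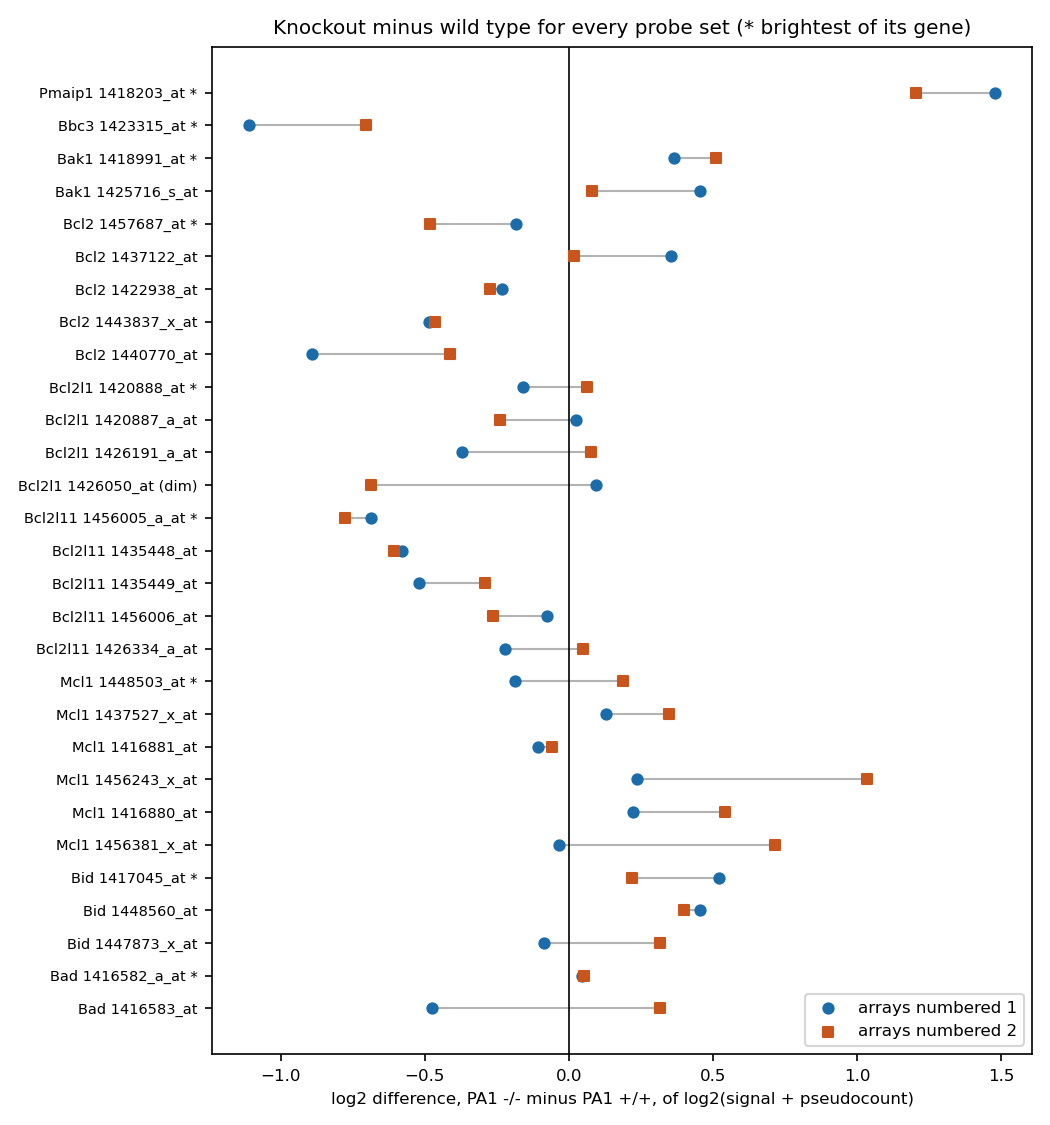
Log2 difference, PA1 -/- minus PA1 +/+, of log2(signal + 9.96) for each of the 29 probe sets of the 9 members. Circles are the arrays numbered 1 and squares those numbered 2, an asterisk marks the brightest probe set of a gene and 1 dim probe set was not tested. Pmaip1 stands alone above 1 at both numbers, the brightest 3 of Bcl2l11 lie left of 0 at both, and those of Bcl2l1 straddle 0.

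The members also differed between arrays of 1 genotype, and for 7 of 9 that log2 difference, averaged over the genotypes, was larger than the one between genotypes, as it was for 67.5% of genes. Pmaip1 was much brighter on the arrays numbered 1: its signal on the array numbered 2 was 0.0798 of that on the array numbered 1 in PA1 -/- cells and 0.0855 of it in PA1 +/+ cells. Bcl2, Bcl2l1 and Bid went the other way, with number 2 over number 1 at 3.02, 2.88 and 2.08 in PA1 -/- cells and at 3.71, 2.46 and 2.58 in PA1 +/+ cells. These 3 were at least 2-fold higher on the arrays numbered 2 in both genotypes, against 3.78% of genes, and Pmaip1 was the 1 member at least 2-fold lower, against 4.52%. Mcl1 had ratios of 0.764 and 0.589, and Bak1 of 0.771 and 0.695, in PA1 -/- and PA1 +/+ cells. Bcl2l11 and Bad differed little between numbers in their brightest probe sets, with ratios from 0.880 to 0.956. The second probe set of Bad had ratios of 1.36 in PA1 -/- and 0.783 in PA1 +/+ cells. Bbc3 had ratios of 1.66 and 1.24, and it and Bcl2l11 were the 2 members whose genotype difference exceeded their difference between numbers. What the numbers stand for was not given in the sources used here.

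**Figure D3:**
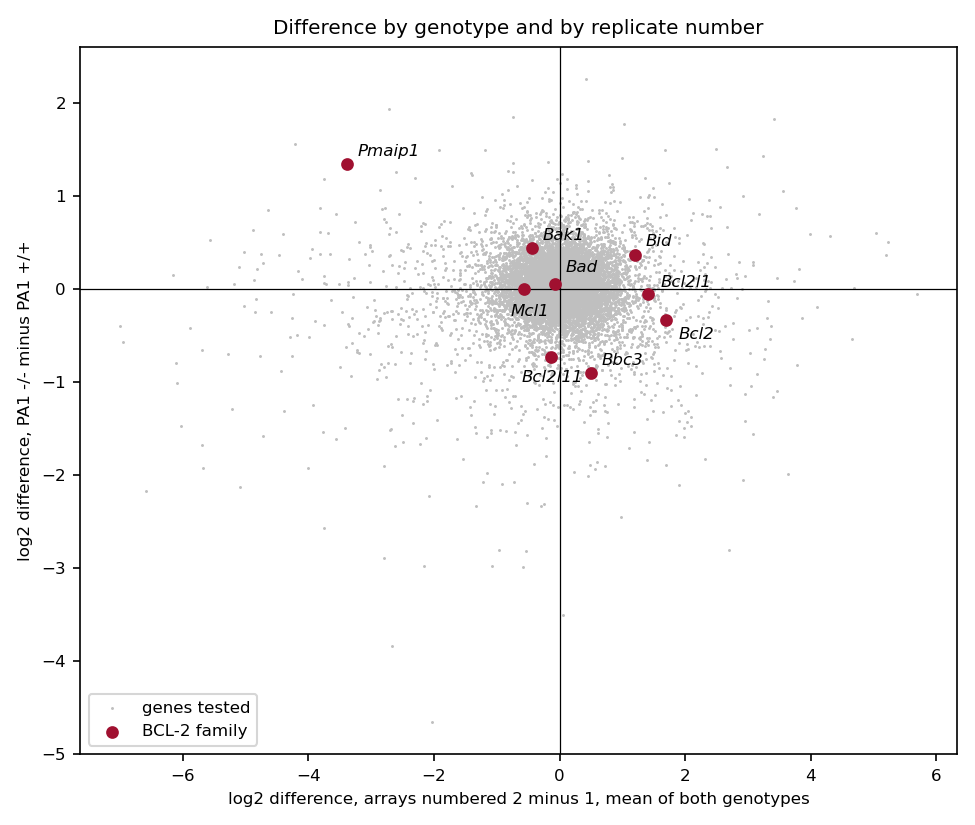
Log2 difference between genotypes (PA1 -/- minus PA1 +/+, vertical axis) against log2 difference between replicate numbers (2 minus 1, mean of both genotypes, horizontal axis) for 10714 genes tested in grey and 9 members in red, brightest probe set of each. Pmaip1 lies at the upper left, at 1.34 on the vertical axis, Bcl2, Bcl2l1 and Bid lie to the right, and Bbc3 and Bcl2l11 lie near the middle and below 0.

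With genotype as the only term, limma called 0% of the 10714 genes, members included, at an adjusted p below 0.05. Pagr1a itself did not pass in this limma fit (adjusted p = 0.876 for its brightest probe set). A count of 0 therefore does not mean that no gene changed. At an unadjusted p under 0.05 there were 231 genes, or 2.16%. In this fit the difference between numbers counts as spread, and for 2 arrays against 2 the smallest p of an exact permutation test is 0.333.

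The list of other BCL-2 family and BH3 genes also took in BCL-2-interacting genes such as Bnip2. It had 13 of 17 names on the array, of which 8 were bright enough to test. Of these, 3 were higher and 2 lower at both numbers, against 33.9% and 29.3% of all genes tested. In this list 0 passed limma adjusted over all genes, and the median difference was 0.01. The lower ones were Bmf, a BH3-only protein gene, and Bcl2l12. Bmf read 54.6 and 47.5 on PA1 -/- arrays, against 115.5 and 65.8 on PA1 +/+ arrays, without overlap (-0.68). Both PA1 -/- values lie below the boundary of 62.8, so Bmf came into the tested range only through its PA1 +/+ arrays. Bcl2l12 read 364 and 471 against 446 and 740 (-0.46). The higher ones were the survival gene Bcl2l2, which encodes BCL-W, at 886 and 1180 against 640 and 925 (0.41), Bcl2l13 at 1263 and 1122 against 808 and 1060 (0.36), and Bnip2 at 4866 and 4212 against 3594 and 3759 (0.30). A dim second probe set of Bcl2l2 gave -0.21. Bok, a relative of BAX and BAK, differed by 0.14 at number 1 and -0.80 at number 2, while Bnip1 and Bnip3 had mean differences of -0.02 and 0.04.

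Downstream of the mitochondria, all 16 measured genes of cytochrome c release, the apoptosome and the caspases were tested. Of them, 5 were higher and 4 lower at both numbers, against 33.9% and 29.3% of all genes tested. The groups did not overlap for 3 of the higher and 1 of the lower, against 15.0% and 11.3% of all genes. In this list 0 passed, and the median was 0.03. Casp9, the initiator caspase of the apoptosome, read 183.2 and 166.7 on PA1 -/- arrays, against 140.0 and 146.3 on PA1 +/+ arrays (0.27), and Casp2 read 1326 and 1442 against 1110 and 1322 (0.19). Endog, a mitochondrial nuclease gene, read 307 and 349 against 494 and 438 (-0.49). Named after their values were seen, the other higher ones were Casp8, Dffa and Diablo and the other lower ones Casp12, Htra2 and Vdac3. Of 5 tested inhibitors of apoptosis, 1 was lower and 0 were higher at both numbers, with a median of -0.03 and 0 passing. Leaving out 1 array moved that median between -0.20 and 0.15. The lower one was Birc5, the gene of survivin, at 7867 and 6246 on PA1 -/- arrays, against 8055 and 6354 on PA1 +/+ arrays (-0.03), named after its values were seen.

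Of the list for the death receptor pathway upstream of Bid, 8 of 12 genes were tested. Of these, 1 was higher and 5 were lower at both numbers, against 33.9% and 29.3% of all genes tested. In this list 0 passed, and the median was -0.19. Tradd, an adaptor of the TNF receptor, read 779 and 959 on PA1 -/- arrays, against 1037 and 1025 on PA1 +/+ arrays (-0.25). Dap, which is on the list but is not itself a death receptor gene, read 8780 and 10303 against 11005 and 13230 (-0.34). These 2 had no overlap between groups, with the knockout lower, as for 11.3% of all genes tested. The second probe set of Tradd, at 634 and 1005 against 828 and 983, overlapped and differed by -0.38 at number 1 and 0.03 at number 2. Named after their values were seen, Fas, Tnfrsf1a and Fadd were the others lower at both numbers, and the higher gene was Cflar, which encodes FLIP, an inhibitor of caspase-8. Cflar read 452 and 1371 on PA1 -/- arrays, against 319 and 790 on PA1 +/+ arrays, or 0.49 and 0.79 on the log2 scale.

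The p53 pathway list, which holds p53 targets and regulators outside the family, had 25 tested genes. Of these, 10 were higher and 7 lower at both numbers, against 33.9% and 29.3% of all genes tested. In this list 0 passed, and the median was 0.04. Leaving out 1 array compares arrays of unlike number and moved that median between -0.40 and 0.35. Number 2 minus number 1 had list medians of 0.65 in PA1 -/- and 0.73 in PA1 +/+ cells, so this shift cannot settle the sign. Within numbers 1 and 2 the genotype medians were 0.04 and 0.05. The groups did not overlap for 1 gene that was higher and 2 that were lower, the next 3 named, against 15.0% and 11.3% of all genes. Ddit4, which also answers to stress signals other than p53, read 898 and 1344 on PA1 -/- arrays, against 2576 and 2630 on PA1 +/+ arrays (-1.24). Sesn1 read 500.3 and 498 against 806 and 667 (-0.55), and Rrm2b, a ribonucleotide reductase subunit gene, 453 and 456 against 355 and 336 (0.39). Of the 2 other probe sets of Sesn1, 1 was lower at both numbers, and the other, at 139.9 and 272 against 342 and 240.4, overlapped and differed by -1.23 and 0.17. Between numbers, 6 of the 25 were at least 2-fold higher on the arrays numbered 2 in both genotypes, against 3.78% of all genes tested. At least 2-fold lower there was 1, against 4.52%. Named after their values were seen, the 6 were Cdkn1a, Mdm2, Phlda3, Trp53inp1, Aen and Polk, and the other was Perp. Cdkn1a read 2391 and 7339 on PA1 -/- arrays, against 2610 and 7428 on PA1 +/+ arrays. Perp read 840 and 101.1 against 1072 and 138.9. Pmaip1 was thus dim on the arrays on which Cdkn1a and Mdm2 were bright.

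Regulators of the members, 23 genes for factors, kinases, scaffolds and ligases, all tested, had 9 higher and 8 lower at both numbers. The shares of all genes tested were 33.9% and 29.3%. In this list 0 passed, and the median was 0.00. The groups did not overlap for 5 that were higher and 4 that were lower, against 15.0% and 11.3% of all genes tested. The 3 with the largest differences among these are given. Trib3, a pseudokinase gene induced by the stress factors ATF4 and CHOP, read 247 and 362 on PA1 -/- arrays, against 943 and 527 on PA1 +/+ arrays (-1.21). Its second probe set, at 244 and 402 against 778 and 396, overlapped and differed by -1.63 at number 1 and 0.02 at number 2. Akt1, a kinase gene whose product phosphorylates BAD, read 3907 and 3176 against 2127 and 2741 (0.54), and Pim3, the gene of another BAD kinase, 3225 and 2606 against 2079 and 2161 (0.45). Named after their values were seen, the others without overlap were Mapk8, Bag3 and Ywhae, which were higher, and Pim1, Atf4 and Usp9x, which were lower.

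**Figure D4:**
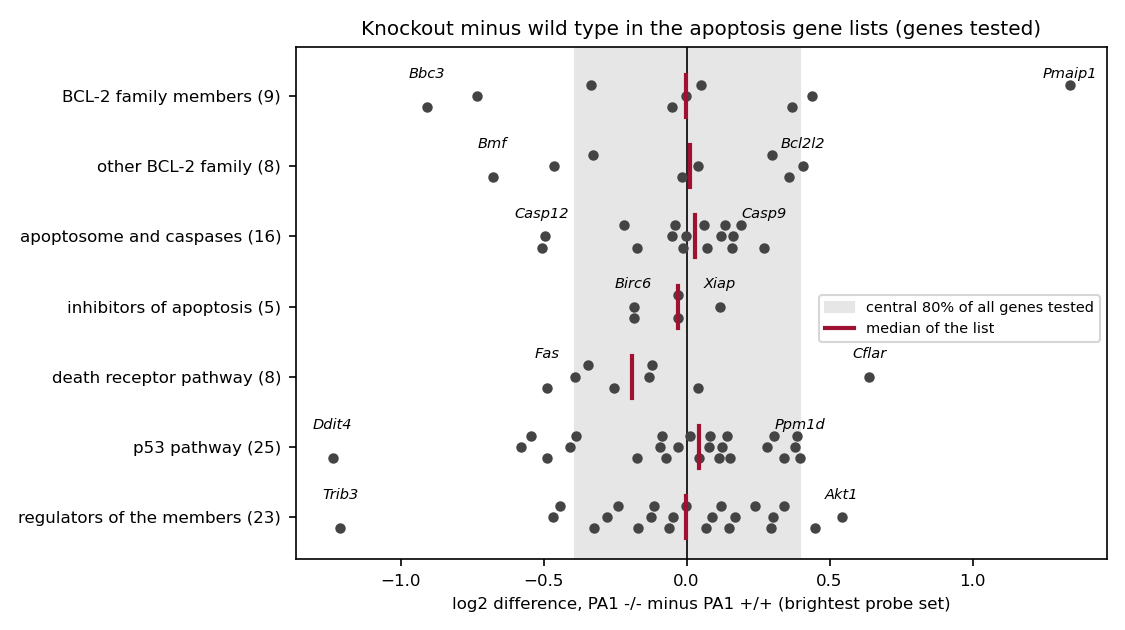
Log2 difference, PA1 -/- minus PA1 +/+, of the brightest probe set of each tested gene in the family and in 6 other apoptosis lists, with the number of genes in brackets. Each point is a gene, red bars are list medians, the grey band holds the central 80% of all 10714 genes tested and the lowest and highest gene of each list is named. Medians lie between -0.19 and 0.04, and Pmaip1 is the highest point of any list.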

How the data were processed

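Biotin-labelled total RNA was measured on 4 Affymetrix arrays. The authors deposited intensity values that are linear MAS5 signals, per the submitters' processing notes. The version and the scaling target of MAS5 were not given in the sources used here. After 64 control probe sets were dropped, 45037 remained. Genes were named from the platform annotation (34945 probe sets with 1 symbol). Signals were analysed as log2(signal + 9.96), the constant being the 20th percentile of all signals, so differences of dim genes are understated. The brightest 50% of probe sets by their mean over the arrays (22519) were tested, and each gene was read through its brightest, giving 10714 genes. Differences are knockout minus wild type. Group was the only term of the limma fit (version 3.58.1, R 4.3.3, eBayes with a trend on intensity, 2 residual degrees of freedom), and its 2-sided p-values were adjusted by Benjamini-Hochberg across the tested probe sets. The script was tested on simulated data. That test set no minimum recovery for the fit with group alone when the replicate numbers differ, as they do here. The members and the 6 other lists were chosen with earlier results of these data known. Named from each other list were up to 3 tested genes with the largest difference among those without overlap and of 1 sign at both numbers, and every tested gene of the other BCL-2 list. The other genes named were chosen after their values were seen. Promoters came from RefSeq, GRCm38.p6. The alternatives are given at the end. Figures were drawn with matplotlib 3.10.9.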

Additional observations from a re-analysis of the deposited data

How the results depend on the processing

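The number of arrays limits the precision, and signals near or below 62.8 were dim. The count of probe sets passing limma was 0 with the main settings. It was also 0 under quantile, median and cyclic loess scaling, with a pseudocount of 1 or at the median, without the filter or with 30% of probe sets kept, with eBayes robust or lacking a trend, at a threshold of 0.01, and without each array in turn. With the replicate number as a block (replicate block) it was 447 of 22519 probe sets (1.98%), against 2 of 28 tested probe sets of the members, those of Pmaip1 and Bbc3. Of the genes tested in the 6 other lists, Ddit4 alone passed in that limma fit (adjusted p = 0.00581). The members and lists had been chosen with this contrast known, so nothing is read from these calls. Pagr1a, the targeted gene, also passed in the limma fit with the block (adjusted p = 1.90e-05 for its brightest probe set). Deviations of same-numbered arrays from their group means correlated at 0.805, so arrays of 1 number were alike in more than their label. The labels do not say that a number marks a shared culture, so what these arrays share is not known.

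The 7 scalings, pseudocounts and filters left each member's brightest probe set on its side of 0 wherever the member was kept, except Mcl1, which ran from -0.01 to 0.05. Pmaip1 ran from 1.04 to 1.43 and was not among the genes kept by the filter of 30%. Bbc3 ran from -0.97 to -0.78 and Bcl2l11 from -0.79 to -0.68. Leaving out an array, added after the data had been seen, turned the sign for Pmaip1, Bcl2, Bcl2l1, Mcl1 and Bid, as given beside each. Over these settings, and with all tested probe sets of a gene averaged, 3 or 4 members were higher and 3 or 4 lower at both numbers. The median of the members lay between -0.31 and 0.02 without 1 array. Without 1 array, those of the 6 other lists lay between -0.31 and -0.12 for the death receptor genes, -0.40 and 0.35 for the p53 pathway, -0.20 and 0.15 for the inhibitors of apoptosis, -0.07 and 0.03 for the caspases and their partners, 0.00 and 0.14 for other BCL-2 genes and 0.04 and 0.07 for the regulators. These shifts were smaller than the typical spread between arrays of 1 genotype. Dropping an array moves a group mean by only part of the gap between its arrays, so this result was nearly fixed beforehand. It does not show that the medians are steady, since some, such as that of the p53 pathway, changed sign. Counts at both numbers cannot be had without an array.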

Other observations

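Some other family members were measured but too dim to be tested. Bik, a BH3-only gene, read 85.4 and 40.1 on PA1 -/- arrays, against 7.51 and 38.6 on PA1 +/+ arrays, so the difference of 2.45 at number 1 was 0.04 at number 2. Bcl2l15 read 3.44 and 3.01 against 18.3 and 10.0, and the BH3-only gene Hrk 44.0 and 82.5 against 58.3 and 66.5.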
